A study of Mus musculus with 24 samples.

Results

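The hypoxia-inducible genes described here are 10 genes that are switched on, or whose products are used, when cells are short of oxygen: Hif1a, Egln1, Egln3, Ankrd37, Bhlhe40, Bnip3, Vegfa, Adm, Ndrg1 and Car9. They were taken by name, as every probe set (a group of short probes that reads out a transcript) annotated with the symbol of a listed gene alone, and make up 10 of the 18194 genes that the arrays name. This gave 21 probe sets, 19 on the array design called MA and 2 on the design called MB. The arrays measured total RNA of C2C12 cells, a mouse myoblast line that stops dividing and fuses into myotubes when serum is withdrawn. Cultures were labelled GM or DM, abbreviations that the labels do not spell out and that C2C12 users normally read as growth medium and differentiation medium, and had 5 or 25 mM glucose. Each of the 4 groups (GM at 25 mM, GM at 5 mM, DM at 25 mM and DM at 5 mM) had 3 cultures, numbered 1 to 3, and every culture was run on both designs. The series asks whether calorie restriction alters how muscle precursors differentiate. Oxygen tension, culture times and the length of the glucose exposure are not stated, and no group is labelled as hypoxic. The cells are an established line, all 4 groups carry no further allele or agent in their labels, and nothing states that the cultures of a group were started separately, so the spread behind the p-values may be technical.

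Hypoxia-inducible factors (HIFs) are pairs of an oxygen-sensitive alpha subunit, such as the product of Hif1a, and a stable beta subunit. When oxygen is plentiful, prolyl hydroxylases such as Egln1 and Egln3 modify the alpha subunit, the Vhl protein recognises it and the proteasome degrades it, so that the activity of HIF1 is set largely by protein stability and not by Hif1a mRNA. When oxygen is low the pair binds a short DNA core, and turns on genes of glycolysis, blood vessel growth, acid handling and mitochondrial removal, among them Egln3 itself. In skeletal muscle the same pathway is known for shifting cells towards glycolytic metabolism.

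The DNA just upstream of the start sites is shown for Hif1a, Egln3 and Ankrd37, the members that were lower together in DM at 5 mM glucose along with Ndrg1, for Egln1, the other hydroxylase, and for Bnip3, whose window held the most copies of the core. Sequences are those of RefSeq on GRCm38.p6, each 250 bases long and ending at the base before the start site, written 5′ to 3′ on the strand of the gene. Capitals mark the HIF core motif, ACGTG or GCGTG, on either strand, so that its reverse complements CACGT and CACGC are in capitals as well. Hif1a lies on the plus strand and its window is chr12:73907617-73907866. Egln3 (chr12:54203875-54204124), Ankrd37 (chr8:45999851-46000100), Egln1 (chr8:124949255-124949504) and Bnip3 (chr7:138909507-138909756) are on the minus strand.
Hif1a: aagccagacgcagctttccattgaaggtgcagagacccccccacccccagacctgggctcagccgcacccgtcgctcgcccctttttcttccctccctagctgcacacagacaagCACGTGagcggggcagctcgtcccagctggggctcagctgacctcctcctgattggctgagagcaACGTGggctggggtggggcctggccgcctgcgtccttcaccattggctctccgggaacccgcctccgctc
Egln3: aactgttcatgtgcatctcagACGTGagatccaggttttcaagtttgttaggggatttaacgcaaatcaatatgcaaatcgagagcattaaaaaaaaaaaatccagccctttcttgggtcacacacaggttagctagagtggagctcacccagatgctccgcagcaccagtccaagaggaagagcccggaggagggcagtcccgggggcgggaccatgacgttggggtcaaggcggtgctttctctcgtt
Ankrd37: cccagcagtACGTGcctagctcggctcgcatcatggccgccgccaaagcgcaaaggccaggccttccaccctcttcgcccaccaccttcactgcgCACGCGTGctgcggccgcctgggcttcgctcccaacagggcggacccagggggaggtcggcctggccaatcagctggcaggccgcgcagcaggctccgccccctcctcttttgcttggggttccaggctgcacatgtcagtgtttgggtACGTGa
Egln1: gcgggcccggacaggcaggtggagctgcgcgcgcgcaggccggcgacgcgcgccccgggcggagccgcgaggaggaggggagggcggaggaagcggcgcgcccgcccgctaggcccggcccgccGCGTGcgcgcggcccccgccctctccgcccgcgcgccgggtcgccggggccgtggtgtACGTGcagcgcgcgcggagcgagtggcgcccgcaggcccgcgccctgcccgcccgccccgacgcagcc
Bnip3: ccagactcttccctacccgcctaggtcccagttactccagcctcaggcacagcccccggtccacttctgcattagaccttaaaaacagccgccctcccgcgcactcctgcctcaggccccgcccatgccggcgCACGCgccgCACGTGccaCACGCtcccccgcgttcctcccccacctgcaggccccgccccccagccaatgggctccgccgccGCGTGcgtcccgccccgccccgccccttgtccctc
Matches were counted on both strands, and overlapping ones separately, so that a CACGTG counts as 2. The Bnip3 window held 5 matches, that of Ankrd37 held 4 with the closest starting 6 bases upstream of the start, that of Hif1a held 3, that of Egln1 held 2 and that of Egln3 held 1. RefSeq windows were found for 8 members, Vegfa with 2 of them, and 8 of these 9 windows held a match, while 38.6% of all 32851 windows of this length did. A match says only that these letters are present. The start sites used for Hif1a and Ankrd37, and 1 of the 2 used for Vegfa, lie inside the annotated gene. For Vegfa the window at the edge of the gene held 0 matches. The Vegfa window with 2 matches belongs to a start site 7214 bases inside the gene. Ndrg1 and Bhlhe40 had no entry.

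The values are probe set intensities as deposited, already scaled to a common mean on each design. On the log2 scale, cultures of a group correlated at 0.951 to 0.987 (MA) and at 0.792 to 0.918 (MB). The 4 cultures GM 5 mM 1, GM 5 mM 2, DM 25 mM 3 and DM 5 mM 2 stood apart. Their 18S ribosomal RNA control on MA read 23.0 to 48.2 against 279 to 1267 in the other 8 cultures, and the brightest probe set of their MA arrays read 6719 to 9752 against 17234 to 22957. They are called the low-18S cultures below, and GM at 25 mM has 0 of them among its 3 cultures, GM at 5 mM has 2 and each DM group has 1, so values that change with them are also given with the 18S class as a block or over the other 8 cultures. Those 8 leave 1 culture in GM at 5 mM, whose spread is then assumed to be that of the other groups. As a check of the labels, Myog, the transcription factor that marks committed muscle cells, averaged 14.8 and 20.6 in the GM groups and 6129 and 6250 in the DM groups. All 8 myoblast and myotube markers passed the filter on low values, which uses the mean over all arrays of a design. Myod1, Myf5, Des and Ckm had every group mean above the filter of 35.5 on MA. Myog, Acta1 (23.3 and 16.6), Myh3 (9.89 and 6.33) and Mymk (14.7 and 4.77) had GM means below it. These markers passed through their DM values, so the pass does not show them in GM. Of markers of endothelial, blood, adipocyte and bone cells, 1 of 5, 1 of 4, 1 of 4 and 1 of 4 passed. The summed adipocyte list, of which Adipoq averaged 1.56 to 10.2 and Plin1 had no probe set, read 271 to 365 in GM and 58.1 to 110 in DM cultures, most of it Cebpa. Its part in the results was not tested.

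Of the 21 probe sets, 19 passed the filter, a mean over the 12 arrays above 35.5 on MA or 63.7 on MB, and every member had at least 1 that did. Of these 19, 17 had every group mean above the filter. Changes are log2 differences between group means of log2(intensity + 20), which understate the change of dim probe sets, with standard error (SE). A gene stands for its brightest tested probe set and is called at an adjusted p under 0.05 (limma, Benjamini-Hochberg over all tested probe sets of the design). In DM against GM at 25 mM, 3 of 10 members were called, 1 higher and 2 lower, where 28.1% of the 12851 genes tested were called, 12.2% higher and 15.9% lower. At 5 mM, 4 of 10 were called, all lower, where 23.2% of all genes were called, 9.5% higher and 13.7% lower. Lowering glucose from 25 to 5 mM in GM called 0 of 10 members by limma (0.00778% of all genes; 4 members had an unadjusted p under 0.05) and in DM 1 of 10, which was lower (1.35%, 0.91% lower), and the interaction, how much more glucose changed a gene in DM than in GM, called 1 of 10, which was lower (0.467% of all genes, 0.342% lower). The members' median change was 0.04 in DM against GM at 25 mM beside -0.11 over all genes, and -0.15 at 5 mM beside -0.03. With the 18S class as a block the members' median equalled that of all genes, at -0.09 for 25 mM and -0.06 for 5 mM. The members thus did not move one way as a group with the medium: Bhlhe40 rose, Ndrg1 and Egln1 fell at 25 mM, and Ndrg1, Ankrd37, Hif1a and Egln3 fell at 5 mM. Centring each array on its median moved the median of all genes at 25 mM from -0.11 to 0.06, that of the glucose change in GM from -0.01 to 0.12 and that of the interaction from 0.02 to -0.14. It also moved the share of called genes that were higher, from 43.3% to 62.7% at 25 mM and from 26.7% to 12.9% for the interaction. No called member changed direction with it. The calls on the brightest Ndrg1 probe set and on Bhlhe40 at 25 mM held under all 24 alternatives run for them. Fitting without the filter, with median centring or with only the arrays compared each ended the calls on Egln1 at 25 mM and on Hif1a, Ankrd37 and Egln3 at 5 mM (limma adjusted p from 0.0532 to 0.149), and these calls were lost in 11, 8, 11 and 12 of 24 alternatives. Those 24 leave out genes as the mean of their tested probe sets. That alternative called 2 members at 25 mM (1 higher and 1 lower) and 3 at 5 mM, all lower. With it included, the limma adjusted p reached 0.944 for Egln1 at 25 mM and 0.471 for Hif1a at 5 mM. The 2 DM against GM comparisons share no culture with each other, but each shares cultures with both glucose comparisons.

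**Figure D1:**
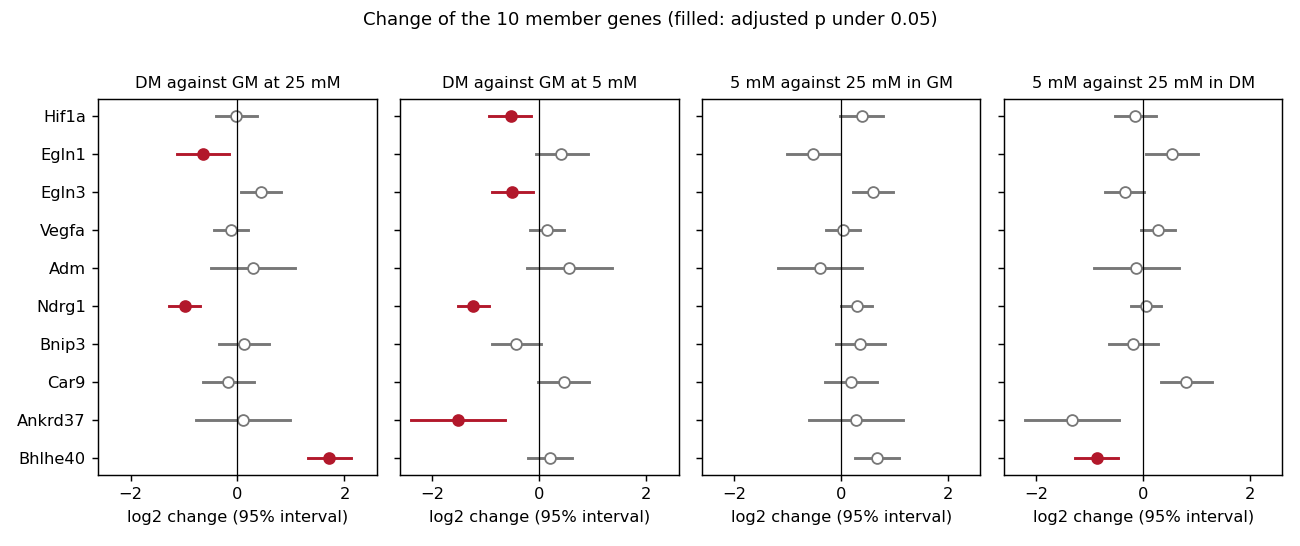
Log2 change of the 10 genes (x axis, with its 95% interval) in 4 comparisons, each gene by its brightest tested probe set and n = 3 cultures per group; filled red points are genes called at an adjusted p under 0.05 by limma. Bhlhe40 lies at 1.72 in DM against GM at 25 mM and at 0.19 at 5 mM, while Ndrg1 lies near -1 at both, at -0.99 and -1.24.

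Hif1a (Entrez gene 15251), the oxygen-regulated subunit of HIF1, was read by 4 probe sets. The brightest, 1427418_a_at, read 536, 598 and 540 in GM at 25 mM, and at 5 mM it read 767, 813 and 622. In DM it read 502, 492 and 670 at 25 mM and 443, 679 and 398 at 5 mM. The GM cultures at 5 mM were the highest of the 4 groups on average, with 734 ± 99.7 (SD, n = 3), while GM at 25 mM (558 ± 34.4), DM at 25 mM (554 ± 100) and DM at 5 mM (507 ± 151) followed within an SD of each other. At 5 mM glucose Hif1a was 1.46-fold lower in DM than in GM (log2 -0.54, SE 0.18, limma adjusted p = 0.0369), although DM culture 2, a low-18S culture, overlapped the GM range. The difference was -0.39 with the 18S class as a block (limma adjusted p = 0.00744) and -0.54 over the high-18S cultures (limma adjusted p = 0.0342), where the lone GM 5 mM culture borrows its spread from the other groups. It was no longer called without GM 5 mM culture 1 or 2 (log2 -0.51 and -0.47, limma adjusted p = 0.11 and 0.13) or without DM 5 mM culture 1 or 3 (-0.47 and -0.40, limma adjusted p = 0.128 and 0.163). At 25 mM the difference was -0.02, with a 95% interval from -0.41 to 0.37. In GM, every culture at 5 mM read higher than every culture at 25 mM, but the change of 0.38 (SE 0.18) was not called (limma adjusted p = 0.471) and was 0.06 with the 18S block.

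The dimmer Hif1a probe sets did not show the drop at 5 mM. Probe set 1416035_at ran from 56.4 to 108 over the 12 cultures and changed by -0.10 (SE 0.20) in DM against GM at 5 mM. Probe set 1448183_a_at ran from 30.1 to 140, with its 4 highest values in the 4 low-18S cultures, and changed by -0.13 (SE 0.44). Their intervals, from -0.52 to 0.32 and from -1.07 to 0.82, both include the -0.54 of the brightest probe set or end just short of it. The last, 1431981_at, did not pass the filter, with a mean of 19.5.

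Egln1 (Entrez gene 112405) encodes PHD2, the main prolyl hydroxylase that marks HIF alpha subunits for degradation, and its 2 probe sets moved in opposite directions. Probe set 1451110_at read 111, 215 and 233 in GM at 25 mM and 109, 116 and 96.7 in DM at 25 mM. GM culture 1 thus lay within the DM range, while the other 2 GM cultures lay well above it. It was called lower in DM (1.56-fold, log2 -0.64, SE 0.23, limma adjusted p = 0.0409, and 0.0415 with the 18S block). Leaving out GM 25 mM culture 2 or 3 gave -0.52 and -0.47 (limma adjusted p = 0.144 and 0.17), and leaving out DM 25 mM culture 1, 2 or 3 gave -0.65, -0.69 and -0.58 (limma adjusted p = 0.0777, 0.0627 and 0.105). Without GM 5 mM culture 1, which only enters the estimate of the spread, the adjusted p was 0.0534 (limma, log2 -0.64), and without all low-18S cultures the change was -0.58 (limma adjusted p = 0.115). At 5 mM the same probe set read 121, 130 and 103 in GM and 144, 141 and 213 in DM, so every DM culture was higher, but the change of 0.41 (SE 0.23) was not called (limma adjusted p = 0.205). The other probe set, 1423785_at, read 143, 19.9 and 99.7 in GM and 128, 103 and 130 in DM at 25 mM. Its change of 0.60 (SE 0.37) was not called (limma adjusted p = 0.218), and GM culture 2 is the lowest of its 12 values. The call on Egln1 therefore holds for 1 of its 2 probe sets.

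Egln3 (Entrez gene 112407) encodes PHD3, a prolyl hydroxylase that is itself a HIF target. Probe set 1418649_at read 174, 182 and 211 in GM at 25 mM, and at 5 mM it read 335, 333 and 229. In DM it read 238, 246 and 311 at 25 mM and 205, 241 and 166 at 5 mM. The order of group means was GM at 5 mM (299 ± 60.6), DM at 25 mM (265 ± 40.01), DM at 5 mM (204 ± 37.5) and GM at 25 mM (189 ± 19.8; SD, n = 3 each), and neighbours in this order differed by less than the larger of their SDs except for DM at 25 mM against DM at 5 mM. At 5 mM, Egln3 was 1.42-fold lower in DM than in GM (log2 -0.51, SE 0.17, limma adjusted p = 0.0411), with DM culture 2 above GM culture 3. At 25 mM every DM culture was higher than every GM culture, by 0.44 (SE 0.17), which was not called (limma adjusted p = 0.0625) except with median centring (0.64, limma adjusted p = 0.0133), quantile normalization (0.45, limma adjusted p = 0.0404), only the arrays compared (limma adjusted p = 0.0474) or without GM 5 mM culture 3 (limma adjusted p = 0.0378). The difference between these opposite changes, -0.95 (SE 0.25), was not called either (limma adjusted p = 0.139), except with array weights (-1.02, limma adjusted p = 0.0167) or without GM 5 mM culture 3 (-1.12, limma adjusted p = 0.0439). The second probe set, 1418648_at, changed by 0.24 (SE 0.20) at 25 mM and -0.48 (SE 0.20, limma adjusted p = 0.0898) at 5 mM, with every DM culture below every GM culture at 5 mM.

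The call on the drop of Egln3 at 5 mM was lost under several alternatives. With the 18S class as a block it was -0.37 (limma adjusted p = 0.0243), and over the 8 other cultures it was -0.29 (limma adjusted p = 0.415). The call of Egln3 ended without GM 5 mM culture 1 or 2 (log2 -0.42 for each, limma adjusted p = 0.159 and 0.151) and without DM 5 mM culture 1 or 3 (-0.52 and -0.38, limma adjusted p = 0.0842 and 0.169). It also ended without GM 25 mM culture 2 or DM 25 mM culture 2 (-0.51 for each, limma adjusted p = 0.0517 and 0.0506).

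Ndrg1 (Entrez gene 17988), a stress-responsive gene that is strongly induced by hypoxia and linked to growth arrest and cell differentiation in many tissues, was the member with the most uniform change. Its brightest probe set, 1420760_s_at, read 343, 292 and 348 in GM at 25 mM, and at 5 mM it read 454, 404 and 360. In DM it read 164, 150 and 151 at 25 mM and 167, 178 and 138 at 5 mM. No DM culture read above 178 and no GM culture below 292, so the media did not overlap at either glucose level. Ndrg1 fell 1.99-fold in DM at 25 mM (log2 -0.99, SE 0.13, limma adjusted p = 4.93e-05) and 2.36-fold at 5 mM (log2 -1.24, SE 0.13, limma adjusted p = 6.62e-06). Among genes called lower, it ranked 747 of 2048 by size at 25 mM and 470 of 1756 at 5 mM. Over the 8 cultures with high 18S the changes were -0.97 (limma adjusted p = 0.000382) and -1.15 (limma adjusted p = 0.00185), the second against 1 GM culture whose spread comes from the other groups.

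The other 4 Ndrg1 probe sets gave the same picture. In all 5 probe sets, each of the 3 DM cultures read below each of the 3 GM cultures at both glucose levels. Changes ran from -1.41 to -0.99 at 25 mM and from -1.60 to -1.24 at 5 mM, and all 10 were called. The -1.41 was that of 1423413_at, whose mean in DM at 25 mM, 31.5, lay under the filter of 35.5. That probe set passed the filter through its other groups, with means of 117 and 147 in GM, so the size of its change is uncertain. The next largest change at 25 mM was -1.27 (1450976_at). The largest change at 5 mM was that of 1456174_x_at, which read 212, 208 and 204 in GM and 33.9, 65.8 and 71.1 in DM (log2 -1.60, SE 0.20, limma adjusted p = 2.37e-05). The probe sets share the same cultures and may read overlapping transcripts, so they are not separate replicates. Only 1450977_s_at lost a call when a culture was left out. At 25 mM its change of -1.07 (SE 0.36, limma adjusted p = 0.0323) became -0.72 without GM 25 mM culture 2 (limma adjusted p = 0.153) and -1.09 without GM culture 3 (limma adjusted p = 0.0675). It was -1.10 without DM 25 mM culture 1 (limma adjusted p = 0.0613) and -0.92 without DM culture 2 (limma adjusted p = 0.105). This call at 25 mM also ended with no filter (-1.07, limma adjusted p = 0.0524), quantile normalization (-0.95, limma adjusted p = 0.0535) and median centring (-0.87, limma adjusted p = 0.0768). At 5 mM the change of 1450977_s_at, -1.45, became -0.73 over the 8 high-18S cultures, which leave 1 culture in GM at 5 mM. Glucose did not move Ndrg1 past the threshold in either medium: the brightest probe set changed by 0.29 (SE 0.13, limma adjusted p = 0.464) in GM and by 0.05 (95% interval from -0.24 to 0.33) in DM.

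**Figure D2:**
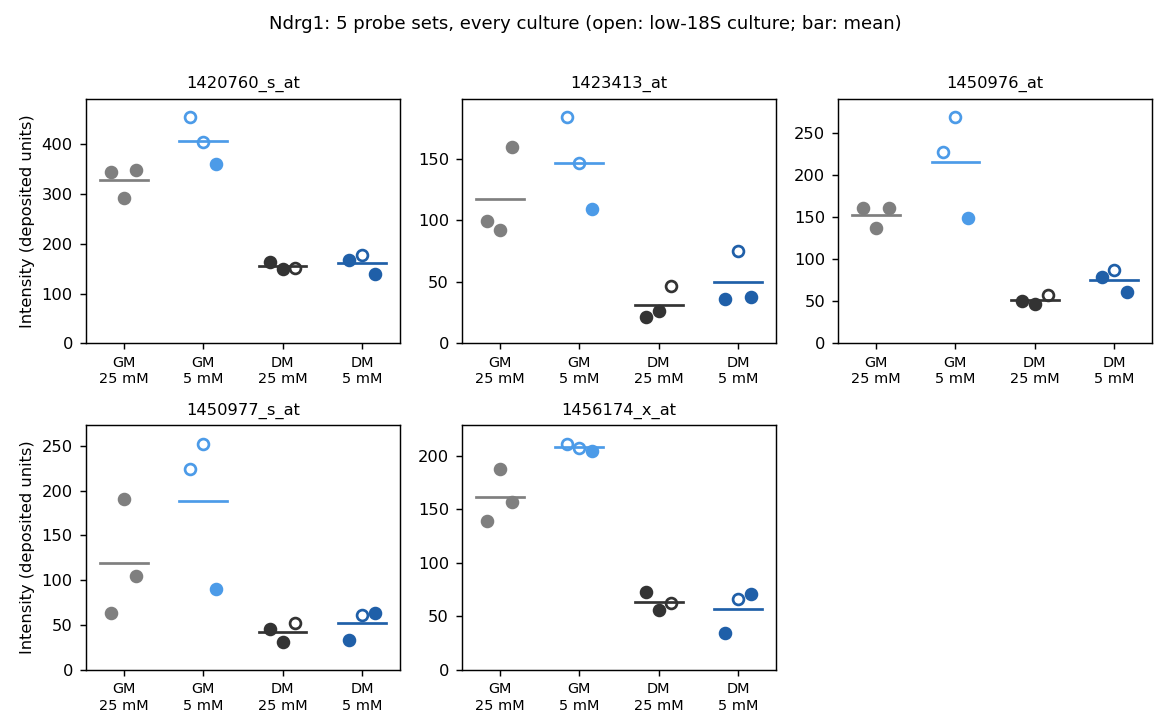
Intensity (y axis, deposited units, from 0) of the 5 Ndrg1 probe sets in every culture, by group (x axis); bars are group means, n = 3, and open points are the low-18S cultures. In each panel all 6 DM points lie below all GM points of the same glucose level; on 1420760_s_at, DM runs from 138 to 178 and GM from 292 to 454.

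Bhlhe40 (Entrez gene 20893; also known as Dec1 or Stra13), a transcriptional repressor of the circadian and hypoxic responses, was the only member called higher in DM. Its probe set 1418025_at read 69.1, 116 and 122 in GM at 25 mM and 399, 325 and 410 in DM at 25 mM. At 5 mM it read 192, 189 and 133 in GM and 198, 216 and 176 in DM. The DM cultures at 25 mM thus stood above all other cultures, while the media overlapped at 5 mM. The means in falling order were 378 ± 46.2 (DM, 25 mM), 196 ± 19.9 (DM, 5 mM), 171 ± 32.9 (GM, 5 mM) and 102 ± 29.0 (GM, 25 mM; SD, n = 3 each), with DM and GM at 5 mM closer to each other than the larger of their SDs.

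At 25 mM Bhlhe40 was 3.30-fold higher in DM (log2 1.72, SE 0.19, limma adjusted p = 6.98e-06), and ranked 336 of 1567 genes called higher. This call held under all 24 alternative settings run for it, with changes from 1.42 to 1.92. At 5 mM the change was 0.19 (SE 0.19, 95% interval from -0.22 to 0.60) and was not called (limma adjusted p = 0.524). Within DM, Bhlhe40 fell 1.83-fold when glucose was 5 instead of 25 mM (log2 -0.87, SE 0.19, limma adjusted p = 0.0312). Within GM it was 0.66 higher at 5 mM (SE 0.19), with all 3 cultures above those at 25 mM, but not called (limma adjusted p = 0.404). The 18S block put that change in GM at 0.48, and the high-18S cultures alone put it at 0.36. The interaction was -1.53 (SE 0.27, limma adjusted p = 0.0211), the 14th in size of 44 genes called lower. With the 18S block the glucose change in DM was -0.87 (limma adjusted p = 0.00643) and the interaction -1.35 (limma adjusted p = 0.0157). Over the 8 high-18S cultures, which leave 1 culture in GM at 5 mM, they were -0.88 and -1.23 and not called (limma adjusted p = 0.117 and 0.365).

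Leaving out single cultures ended both glucose-dependent calls on Bhlhe40 while the sizes moved little. The change in DM was -0.83, -0.97 and -0.82 without DM 25 mM culture 1, 2 or 3 (limma adjusted p = 0.147, 0.0517 and 0.0962) and -0.88 and -0.80 without DM 5 mM culture 1 or 3 (limma adjusted p = 0.0994 and 0.15). The interaction was -1.45 and -1.46 without GM 5 mM culture 1 or 2 (limma adjusted p = 0.0904 and 0.0785), -1.49 without DM 25 mM culture 1 (limma adjusted p = 0.0693), and -1.54 and -1.46 without DM 5 mM culture 1 or 3 (limma adjusted p = 0.0554 and 0.0668).

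**Figure D3:**
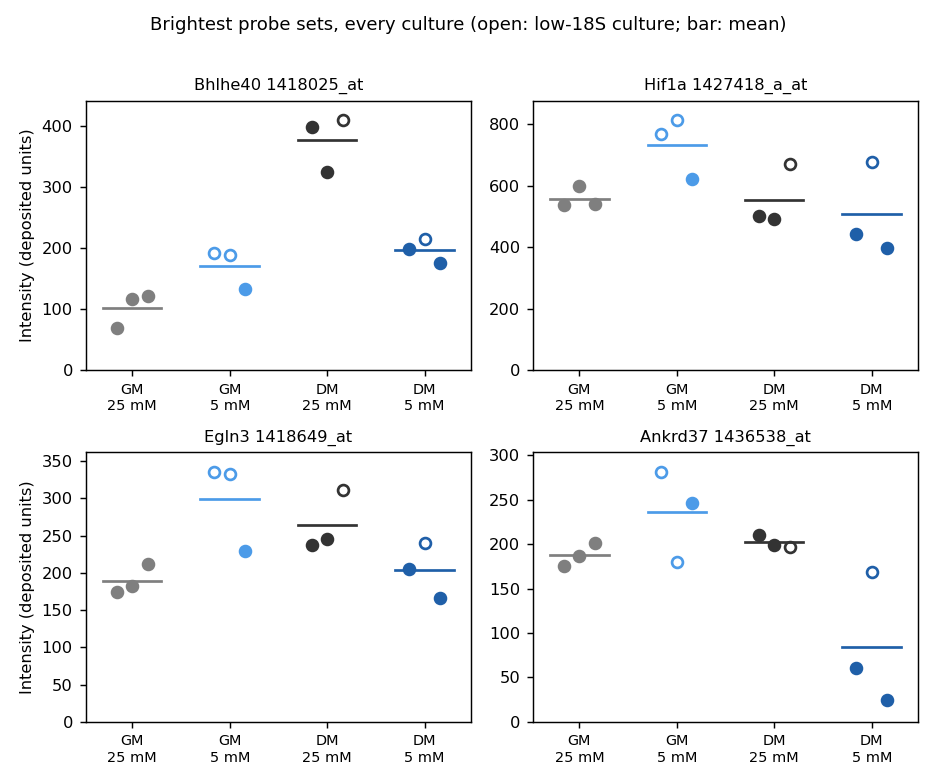
Intensity (y axis, deposited units, from 0) of the brightest probe sets of Bhlhe40, Hif1a, Egln3 and Ankrd37 in every culture, by group (x axis); bars are group means, n = 3, and open points are the low-18S cultures. Bhlhe40 in DM at 25 mM lies at 325 to 410, above all other cultures, and Ankrd37 in DM at 5 mM spreads from 23.9 to 169.

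Ankrd37 (Entrez gene 654824), an ankyrin repeat gene known as a direct HIF target, was measured on MB only, by 1436538_at. It read 175, 187 and 201 in GM at 25 mM, 281, 180 and 246 in GM at 5 mM and 210, 199 and 197 in DM at 25 mM. In DM at 5 mM it read 60.9, 169 and 23.9, below every other culture but with the low-18S culture 2 far above the other 2. The values 60.9 and 23.9 lay under the filter of 63.7 on MB. Levels this low can hold background, so the size of a drop in DM at 5 mM is uncertain. Ankrd37 was 2.88-fold lower in DM than in GM at 5 mM (log2 -1.53, SE 0.42, limma adjusted p = 0.0332), and the change at 25 mM was 0.10 (95% interval from -0.78 to 0.98). Within DM it was 1.34 lower on the log2 scale at 5 mM than at 25 mM (log2 -1.34, SE 0.42), with no overlap, but this was not called (limma adjusted p = 0.517), nor was the interaction of -1.62 (SE 0.59, limma adjusted p = 0.679).

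The call on Ankrd37 rests on few cultures. With the 18S block the change at 5 mM was -1.36 (limma adjusted p = 0.0549), and over the high-18S cultures it was -2.16 (limma adjusted p = 0.0886). Without GM 5 mM culture 1, 2 or 3 it was -1.40, -1.69 and -1.49 (limma adjusted p = 0.152, 0.0549 and 0.0862), and without DM 5 mM culture 1 or 3 it was -1.47 and -1.03 (limma adjusted p = 0.0963 and 0.169).

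The other 4 members were not called in any comparison. Bnip3 (Entrez gene 12176), which drives the removal of mitochondria by autophagy, read 216, 297 and 349 in GM at 25 mM, and at 5 mM it read 451, 383 and 282 on its single probe set, 1422470_at. In DM it read 252, 305 and 379 at 25 mM and 235, 347 and 232 at 5 mM, so all 4 groups overlapped. Its changes in DM against GM were 0.12 (95% interval from -0.34 to 0.58) at 25 mM and -0.43 (95% interval from -0.89 to 0.03, limma adjusted p = 0.162) at 5 mM, the latter called only with array weights (log2 -0.67, limma adjusted p = 0.00576). With the 18S block they were -0.05 and -0.26.

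Vegfa (Entrez gene 22339), the growth factor that draws blood vessels into tissue, was nearly level on its brightest probe set. Probe set 1451959_a_at read 127, 143 and 127 in GM at 25 mM, 131, 143 and 131 in GM at 5 mM, 108, 128 and 125 in DM at 25 mM and 132, 141 and 182 in DM at 5 mM. Its changes with the medium were -0.12 (95% interval from -0.44 to 0.20) at 25 mM and 0.14 (from -0.18 to 0.45) at 5 mM. A change of more than 0.45 on the log2 scale lay outside both intervals of this probe set. The dimmer probe set, 1420909_at, was -0.24 and -0.32 (SE 0.25 for both) and was not called. Its intervals, from -0.77 to 0.29 and from -0.85 to 0.21, include larger drops.

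Car9 (Entrez gene 230099), a membrane carbonic anhydrase that exports acid and is widely used as a hypoxia marker, was near the filter. It read 43.0, 37.1 and 35.1 in GM at 25 mM, 31.9, 54.7 and 54.3 in GM at 5 mM, 22.1, 39.0 and 36.1 in DM at 25 mM and 85.9, 67.8 and 58.4 in DM at 5 mM. The DM cultures at 5 mM were above all 9 other cultures, but neither the glucose change in DM (log2 0.80, SE 0.22, limma adjusted p = 0.117) nor the change with medium at 5 mM (0.45, SE 0.22, limma adjusted p = 0.161) was called. Array weights called the latter (0.63, limma adjusted p = 0.0329).

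Adm (Entrez gene 11535), the gene of the vessel-widening peptide adrenomedullin, was the member whose probe sets differed most in what could be measured. The MB probe set, 1447839_x_at, read 176, 356 and 251 in GM and 339, 342 and 263 in DM at 25 mM. At 5 mM its cultures read 117, 303 and 177 in GM and 315, 154 and 461 in DM. Its changes of 0.29 and 0.56 (SE 0.38 for both) were not called (limma adjusted p = 0.764 and 0.549). The MA probe set, 1416077_at, lay below the filter with a mean of 16.6. Its DM cultures at 25 mM read 33.5, 48.8 and 44.2 against 13.7, 3.62 and 4.25 in GM, without overlap, and at 5 mM its DM cultures read 19.1, 21.3 and 3.81 against 1.22, 1.93 and 4.25. In a fit with no filter it was 1.20 higher in DM at 25 mM (SE 0.23, limma adjusted p = 0.00177) and 0.59 higher at 5 mM (limma adjusted p = 0.115). Levels this low can hold background, so the size of this change is uncertain.

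**Figure D4:**
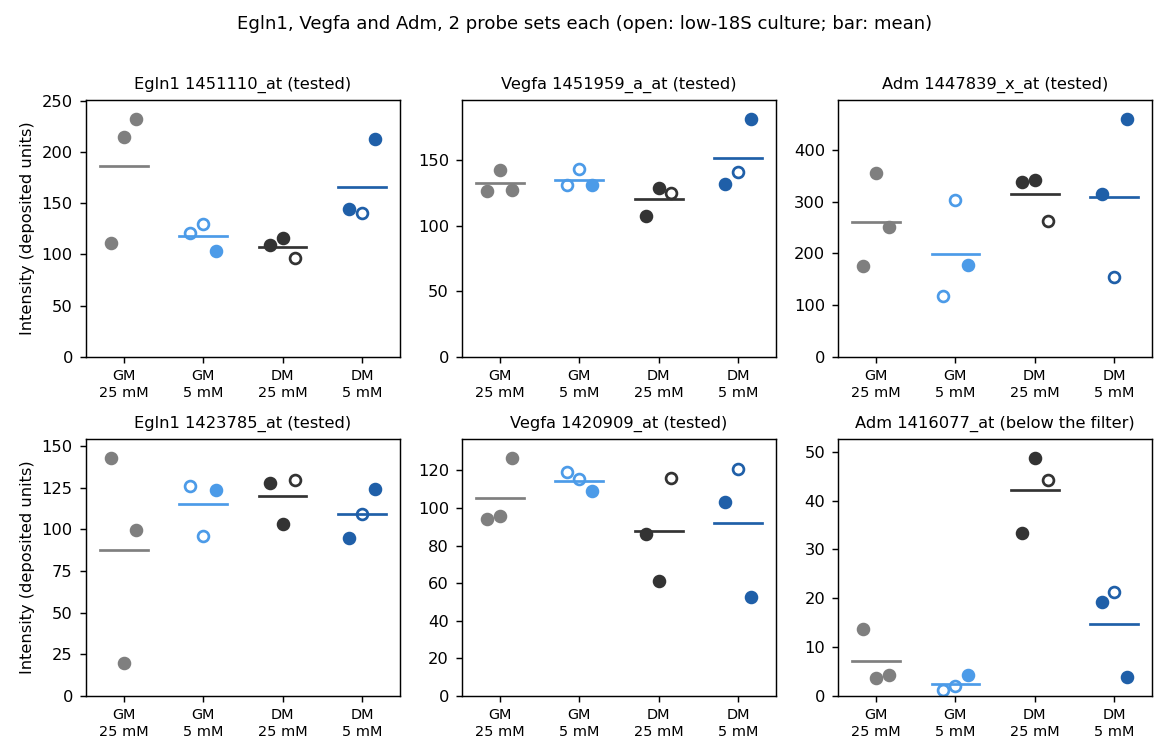
Intensity (y axis, deposited units, from 0) of the 2 probe sets of Egln1, Vegfa and Adm in every culture, by group (x axis); bars are group means, n = 3, and open points are the low-18S cultures. For Egln1 at 25 mM the top probe set is lower in DM (107 against 186) and the bottom one is not (120 against 87.6), and Adm 1416077_at lies at or under 48.8 in every culture.

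Lowering glucose in GM moved no member past the threshold. Comparing 5 with 25 mM in GM, 8 of 10 members had a positive change, with a median of 0.29 beside -0.01 over all genes, and 4 of 10 (Egln1, Egln3, Ndrg1 and Bhlhe40) had an unadjusted limma p under 0.05, where 9.44% of all genes did. None was called by limma, while with array weights Egln3 (0.71, limma adjusted p = 0.0235) and Bhlhe40 (0.76, limma adjusted p = 0.0277) were. Array weights also raised the calls over all 12851 genes tested, from 1 to 506. With them 6 of 10 members had an unadjusted limma p under 0.05, beside 24.1% of all genes. The comparison in GM sets 2 low-18S cultures of 3 against none. With the 18S class as a block the members' median was 0.04, beside 0.01 over all genes, and 2 of 10 had an unadjusted p under 0.05, as did 6.19% of all genes. Over the high-18S cultures 0 of 10 did, beside 3.64% of all genes. In DM, where each group holds 1 low-18S culture, the median was -0.14 beside 0.01 over all genes, and was -0.14 with the block too. In that comparison 4 of 10 members had an unadjusted p under 0.05 beside 9.59% of all genes, and 5 of 10 beside 14.1% with the block.

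The wider HIF pathway was read from 3 lists that include the members. Of 11 genes of the HIF factors and oxygen sensing, 10 were tested, and in DM against GM 1 was higher and 2 lower at 25 mM, and 1 higher and 3 lower at 5 mM, beside 28.1% and 23.2% of all genes called in either direction. With median centring the split was 3 higher and 1 lower at 25 mM and 1 and 1 at 5 mM. Hif1an, the asparaginyl hydroxylase that blocks HIF activation, rose by 1.17 (SE 0.23, limma adjusted p = 0.00198) at 25 mM and 1.23 (limma adjusted p = 0.00146) at 5 mM, from group means of 363 and 420 in GM to 831 and 1016 in DM. Cited2, which competes with HIF for its coactivators and is itself induced by HIF, fell by 0.96 (SE 0.16, limma adjusted p = 0.000328) and 1.75 (limma adjusted p = 1.28e-06), from 1160 and 1457 to 593 and 420. The median of the list was 0.02 at 25 mM and 0.08 at 5 mM, beside -0.11 and -0.03 over all genes. Without the low-18S cultures the Hif1an change at 5 mM was not called (log2 0.96, limma adjusted p = 0.194), nor was that at 25 mM as the mean of its probe sets (log2 1.23, limma adjusted p = 0.072).

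Among HIF targets of glucose use, 14 of 22 genes were tested. In DM 2 were higher and 6 lower at 25 mM, and 1 higher and 5 lower at 5 mM, where lower calls also outnumbered higher ones among all genes (15.9% against 12.2%, and 13.7% against 9.5%). The list's medians were -0.37 and -0.28, beside -0.11 and -0.03 over all genes, and with median centring 3 were higher and 5 lower at 25 mM. The phosphofructokinase genes Pfkp and Pfkl, whose enzyme commits glucose to glycolysis, fell by 1.07 and 1.05 at 25 mM (SE 0.15 and 0.13, limma adjusted p = 5.65e-05 and 2.65e-05) and both fell at 5 mM as well (limma adjusted p = 1.71e-05 and 4.56e-05), Pfkp by 1.23. Pgam1, a later glycolytic enzyme, fell by 0.91 (SE 0.12, limma adjusted p = 2.66e-05) and 0.72 (limma adjusted p = 0.000249). Gys1, the muscle glycogen synthase, rose by 2.43 (SE 0.18, limma adjusted p = 1.1e-07) and 1.57 (limma adjusted p = 9.09e-06), and in DM it was the 1 gene of the list that glucose moved, with 647 at 25 mM and 335 at 5 mM (log2 -0.91, SE 0.18, limma adjusted p = 0.0162). That last call on Gys1 ended without DM 25 mM culture 1 or 2 (log2 -0.86 and -0.82, limma adjusted p = 0.0934 and 0.0926) and without DM 5 mM culture 2 or 3 (-0.85 for each, limma adjusted p = 0.053 and 0.0838).

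Other HIF targets were split. Of 34 genes 26 were tested, with 6 higher and 6 lower in DM at 25 mM and 6 higher and 8 lower at 5 mM, where 12.2% and 15.9%, and 9.5% and 13.7%, of all genes were called. The medians of 0.11 and 0.16 stood beside -0.11 and -0.03 over all genes, and the former was 0.01 with the 18S block. Without the members among them, 19 were tested, with 5 higher and 5 lower at 25 mM and 6 and 6 at 5 mM. Igfbp3, which binds insulin-like growth factors, rose by 1.93 (SE 0.32, limma adjusted p = 0.00031) and 2.15 (limma adjusted p = 0.00014). Higd1a, a mitochondrial protein that supports survival in hypoxia, rose by 0.95 at 25 mM (SE 0.15, limma adjusted p = 0.000192), and the transferrin receptor Tfrc rose by 1.33 at 5 mM (SE 0.14, limma adjusted p = 4.22e-06). Angptl4, a secreted inhibitor of lipoprotein lipase, fell by 1.69 (SE 0.22, limma adjusted p = 3.36e-05) and 1.40 (limma adjusted p = 0.000218). Zfp395 fell by 1.38 at 25 mM (SE 0.26, limma adjusted p = 0.0009), and Mxi1, an antagonist of Myc, fell by 1.42 at 5 mM (SE 0.21, limma adjusted p = 0.000103). In DM, P4ha1, a collagen prolyl hydroxylase, was higher at 5 than at 25 mM (497 against 306, log2 0.66, SE 0.14, limma adjusted p = 0.0246), and Bhlhe40 was the 1 target called lower. The call on P4ha1 ended without DM 25 mM culture 1, 2 or 3 (log2 0.66, 0.66 and 0.67, limma adjusted p = 0.0979, 0.0933 and 0.056) and without DM 5 mM culture 1 or 3 (0.70 and 0.58, limma adjusted p = 0.0589 and 0.132). No gene of the 3 lists was called by limma for glucose in GM (2, 1 and 4 had an unadjusted p under 0.05), where Stc2 had the smallest p among the other targets that are not members (log2 -0.59, limma adjusted p = 0.431). Bhlhe40 was the 1 gene of the 3 lists with a called interaction.

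The 18S class as a block added calls in these lists, and the genes named here for it were chosen after their values were seen. Aldoa, a glycolytic aldolase, was then higher in DM by 0.93 at 25 mM and 0.50 at 5 mM (limma adjusted p = 7.79e-07 and 0.00036), beside 0.64 and 0.79 without the block (limma adjusted p = 0.122 and 0.0705). Bhlhe41, a close relative of Bhlhe40, and the histone demethylase Kdm4b were then higher in DM at 25 mM (0.87 and 0.70, limma adjusted p = 0.0483 and 0.0259). For glucose in DM, Cited2 (-0.48, limma adjusted p = 0.00522) and the lysyl hydroxylase Plod2 (-0.77, limma adjusted p = 0.0077) were then lower at 5 mM, and Tfrc had an interaction of 0.83 (limma adjusted p = 0.0447). Over all genes the block took the calls from 173 to 422 for glucose in DM and from 60 to 93 for the interaction. The share of all genes with an unadjusted limma p under 0.05 also rose in DM against GM. It went from 38.7% to 41.7% at 25 mM and from 33.1% to 36.9% at 5 mM.

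**Figure D5:**
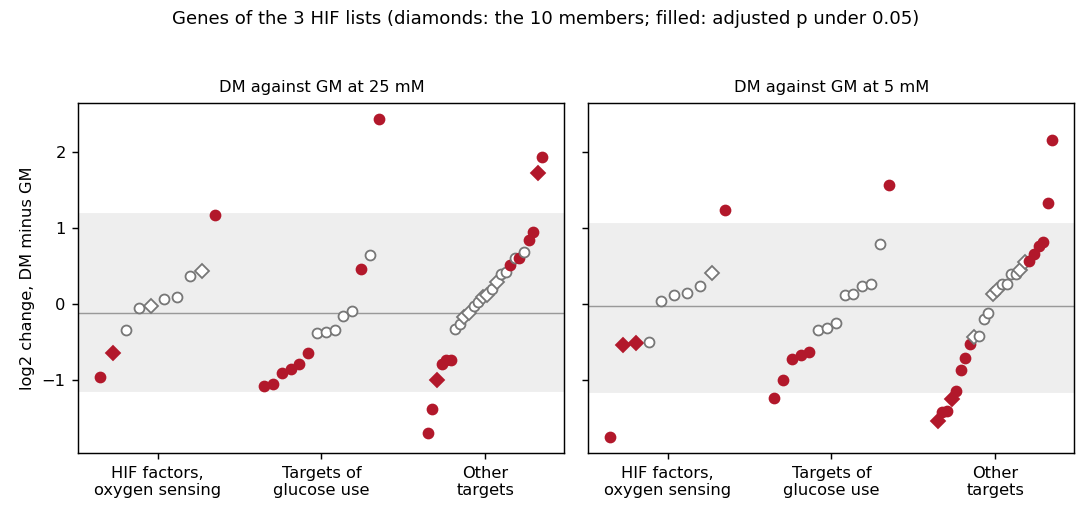
Log2 change in DM against GM (y axis) of the tested genes of the 3 HIF lists at 25 mM (left) and 5 mM (right), sorted within each list; diamonds are the 10 members, filled points are called at an adjusted p under 0.05 by limma, the line is the median over all genes tested and the grey band runs from their 5th to their 95th percentile. The band runs from -1.14 to 1.18 at 25 mM, and Gys1 (2.43), Igfbp3 (1.93) and Bhlhe40 (1.72) lie above it.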

How the data were processed

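Total RNA of 12 C2C12 cultures, 3 in each of 4 groups, was labelled with biotin and hybridised to the designs MA and MB, per the labels. Each deposited number is a probe set intensity on a linear scale. The software behind these intensities is not given in the sources used here. Their mean, trimmed by 2% at each end, is 150 to 150.1 on every array as deposited, so they were not rescaled. Probe sets were named through the platform annotation: on MA 20380 named 1 gene, 691 several and 1555 none, and on MB 14661, 245 and 7605. The 64 control probe sets of each design were left out.

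With limma 3.58.1 in R 4.3.3, log2(intensity + 20) was fitted for probe sets with a 12-array mean beyond the 40th percentile (13575 on MA, 13506 on MB), per design with 4 group means and eBayes with a trend. P-values were two-sided and adjusted by Benjamini-Hochberg within a design. Genes stand for their brightest tested probe set that names them alone, MA preferred. On simulated data, 60% of probe sets changed by 1 on the log2 scale and 95% of those changed by 2 were recovered for DM against GM at 25 mM, over 13575 probe sets, and 7.74% of calls were false. The simulation changed 100 probe sets at each size, with independent noise and no 18S classes. That is far fewer than were called in the data, so these percentages need not carry over. The number of arrays limits the precision. The 18S classes were split at the widest gap of the log2 18S control on MA.

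The members and the lists were chosen with earlier results of these data known. Named genes are all members and, per list and comparison, up to 4 called genes with the largest change, or the one with the smallest p. Alternatives were pseudocounts of 1 and 64, no filter, quantile normalization, a filter at the 60th percentile, eBayes without a trend, median centring, only the arrays compared, array weights, a replicate block, an 18S block, only the high-18S cultures, each culture left out, and genes as the mean of their probe sets.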

Additional observations from a re-analysis of the deposited data

Results flagged for a closer look

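The change of Bhlhe40 between media differed between the glucose levels by a test of the difference itself. It was 1.72 higher in DM at 25 mM and 0.19 higher at 5 mM on the log2 scale, an interaction of -1.53 (SE 0.27, limma adjusted p = 0.0211, from 0.00241 to 0.365 over 23 alternatives). All 3 cultures of DM read lower at 5 mM than at 25 mM, and all 3 cultures of GM read higher. Of those GM cultures at 5 mM, 2 were low-18S cultures, and the change in GM was 0.48 with the 18S block.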

How the results depend on the processing

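Of the 17 changes of member probe sets called in the main setting, 0 changed direction under any alternative. Of the 41 changes of the members' brightest tested probe sets that were not called, 11 changed sign in at least 1 alternative while staying uncalled. Uncalled changes of the dimmer probe sets are not in this count. In DM against GM at 25 mM the count of 3 members ran from 2 to 4 without single cultures, and its split of 1 higher and 2 lower was 2 higher and 1 lower with no filter, quantile normalization, median centring and only the arrays compared. At 5 mM the count of 4 was 1 with no filter on low values, with median centring, with eBayes without a trend and with only the arrays compared, 2 over the high-18S cultures, 6 with array weights (1 higher and 5 lower), and 1 to 4 without single cultures. For glucose in GM the count of 0 was 2 with array weights. For glucose in DM the count of 1 was 0 with a pseudocount of 1, with eBayes without a trend and over the high-18S cultures, and 0 to 1 without single cultures. For the interaction the count of 1 was 2 with array weights, 0 over the high-18S cultures and 0 to 2 without single cultures. The cause of these changes was not tested.

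Cultures with the same number did not deviate together in a uniform way (r from -0.46 to 0.52), and the numbers were not taken as pairs. The r of 0.52 was that of GM and DM culture 2 at 5 mM, both low-18S cultures. These r therefore cannot show that pairing is absent. With the replicate number as a block, the member counts were 3 at 25 mM, 3 at 5 mM, 0 for glucose in GM, 0 for glucose in DM and 0 for the interaction: Bhlhe40 lost both calls that involve glucose (limma adjusted p = 0.0719 and 0.0576) and Egln3 its call at 5 mM (0.0639). The genes called for the interaction went from 60 to 25 with this block.

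Counts over all genes moved by more than 1.5 times at 5 mM over the high-18S cultures (from 2977 to 1793). For glucose in GM, array weights took the count from 1 to 506, and other alternatives gave 0 to 3. For glucose in DM the count of 173 was 82 with only the arrays compared, 422 with the 18S block and 97 to 105 without DM 25 mM culture 1 or 2 or DM 5 mM culture 1 or 3. For the interaction the count of 60 was 30 without a trend, 229 with array weights, 93 with the 18S block, 13 over the high-18S cultures and as low as 22 without a single culture. Of the lists, HIF factors and oxygen sensing went from 3 to 1 at 25 mM with genes as the mean of their probe sets, and from 4 to 2 at 5 mM under 9 alternatives, and the other targets from 14 to 9 at 5 mM over the high-18S cultures. With array weights the 3 lists had 1, 1 and 2 genes called for glucose in GM and 2, 1 and 3 for the interaction. The interaction could not be fitted on only the arrays compared.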
